A study of Callithrix jacchus with 54 samples.

Results

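The first day of SOX17 induction was followed in marmoset cells by comparing 4 libraries made with induced SOX17 (SOX17 + BLSE) with 4 made without it (BLSE), at 12 and 24 h and in duplicate. These 8 libraries were taken by their labels from a series of 54. The cells were a transgenic line made from the marmoset (Callithrix jacchus) embryonic stem cell line CMES40 and kept in DK20FA medium. Every library of both groups carried BLIMP1-tdTomato and NANOS3-eGFP reporters, rtTA, tetO-BLIMP1, SOX17-GR and a destabilised TFAP2C construct. Both groups received BMP4, LIF, SCF, EGF (together BLSE) and a Rock inhibitor. The SOX17 + BLSE cells also received dexamethasone, which releases the SOX17 protein fused to a glucocorticoid receptor domain, whereas the drugs for the other transgenes were not given. Dexamethasone was present only where SOX17 was induced, so an effect of the drug and an effect of SOX17 cannot be told apart. The cells were collected by flow cytometry and are labelled as all cells rather than as a reporter-positive fraction, and the line was 1 drug-selected colony, so the duplicates speak for that clone only.

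In primates, SOX17 acts early in the specification of primordial germ cells (PGCs), the embryonic precursors of sperm and eggs, and it is also a regulator of definitive endoderm. BMP signalling starts the germ cell programme from pluripotent cells that respond to WNT, and SOX17 then works with BLIMP1 (the product of PRDM1) and TFAP2C to keep pluripotency genes on while somatic genes are held down. NANOS3 encodes an RNA-binding protein of early germ cells. BMP4 alone can also turn such cells toward amnion or mesoderm.

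The values were transcript abundances scaled within each library (TPM, transcripts per 1e+06), with the mean of 2 libraries in each group. Fold changes are SOX17 + BLSE over BLSE on the log2(TPM + 1) scale with their standard error (SE), which understates changes of weakly expressed genes. Adjusted p-values came from a limma fit over 11197 genes. A gene was a DEG when it differed over 4-fold at an adjusted p below 0.01 with a mean level above 1.5 on the log2 scale, and was called changed when the adjusted p was below 0.01 at any size. "Rose" and "fell" below are used of genes that were changed. TPM keep no read depth, so the depth behind each value is unknown. The sums of TPM in the 8 libraries ran from 833656 to 837727, and no 2 libraries held identical values.

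RNA of SOX17 stood higher in every library labelled with SOX17. Dexamethasone acts on the fused SOX17 protein, so this RNA level is not a measure of the induction itself. SOX17 was at 64.6 and 62.7 TPM in BLSE at 12 h and at 164 and 168 TPM in SOX17 + BLSE. By 24 h it was at 58.9 and 37.8 TPM in BLSE and at 180 and 189 TPM in SOX17 + BLSE. Untreated marmoset embryonic stem cells (cjESCs) in DK20FA had 27.6 and 36.2 TPM, below all BLSE libraries. SOX17 rose by a log2 fold change of 1.37 ± 0.29 (SE) at 12 h and of 1.94 ± 0.29 at 24 h (adjusted p = 0.0023, then 7.0e-06). Reads of the transgenes and of the marmoset genes cannot be told apart in this table, which bears on SOX17, PRDM1 and TFAP2C alike.

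At 12 h, 18 of 11197 genes (0.161%) were DEGs. Of these, 13 were higher with SOX17 and 5 were lower. Among the 13 higher DEGs were secreted signals (RSPO3, SEMA3C, SEMA3G, TRH, VEGFA), transcription factors (PRDM1, SOX15, DLX3, HNF4A), the germ cell gene NANOS3 and the fatty acid elongase ELOVL7. The 5 lower DEGs were WNT8A, APLNR, FOXF1, CXCL12 and AKAP14. In total 269 genes (2.4%) were changed at 12 h, 180 of them higher and 89 lower. At 24 h, 58 genes (0.518%) were DEGs, 45 higher and 13 lower, and 846 (7.56%) were changed, 621 higher and 225 lower. The lean toward higher calls depended on scaling. After median-ratio scaling of the libraries the changed genes split into 156 higher and 127 lower at 12 h and into 455 and 413 at 24 h, and the DEGs into 11 and 7 and into 35 and 18. After quantile normalization the changed genes split into 174 and 117 at 12 h and into 476 and 363 at 24 h, and the DEGs into 10 and 6 and into 33 and 18. Before scaling the median fold change of all genes was 0.05 at 12 h and 0.10 at 24 h, and the folds below are to be read against it. In both scalings all 18 DEGs of 12 h and all 58 of 24 h stayed changed in their direction. Leaving out 1 library lowered the changed genes of 12 h to 122 or 86 (without BLSE 12 h replicate 1 or 2) and to 123 or 101 (without SOX17 + BLSE 12 h replicate 1 or 2). It lowered those of 24 h to 442 or 448 without SOX17 + BLSE 24 h replicate 1 or 2 and to 402 without BLSE 24 h replicate 2.

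Among the DEGs of 12 h, RSPO3 (gene ID 100399183) had the largest log2 fold change, on a scale that understates changes of weakly expressed genes. RSPO3 is a secreted protein that amplifies WNT signalling at the cell surface. It was at 8.07 and 14.2 TPM in BLSE and at 102 and 98.1 TPM in SOX17 + BLSE. At 24 h the 4 values were 11.6 and 9.19 TPM against 127 and 169 TPM. The groups lay far apart at both times, and the cjESC libraries (5.28 and 2.33 TPM) were below all 8. RSPO3 rose by 3.11 ± 0.37 at 12 h and by 3.70 ± 0.37 at 24 h (adjusted p = 5.1e-07, then 4.8e-09).

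ELOVL7 (gene ID 100392386), which elongates long-chain fatty acids, went from 1.91 and 1.75 TPM in BLSE to 20.4 and 21.4 TPM in SOX17 + BLSE at 12 h. After 24 h it was at 2.83 and 2.77 TPM without and at 18.0 and 16.0 TPM with SOX17. BLSE and cjESC libraries alike held little of this transcript, and the 4 SOX17 + BLSE libraries were close to each other. The log2 fold changes were 2.95 ± 0.25 and 2.24 ± 0.25 (adjusted p = 4.8e-10, then 2.9e-08).

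Both semaphorins of the class 3 that rose, SEMA3G and SEMA3C, encode secreted guidance cues. SEMA3G (gene ID 100390809) was at 0.63 and 0.6 TPM in BLSE and at 10.3 and 11.7 TPM with SOX17 at 12 h, and at 0.88 and 0.64 against 5.99 and 8.62 TPM at 24 h. It was among the least expressed DEGs in BLSE. SEMA3C went from 5.24 and 3.49 TPM to 32.5 and 39.0 TPM at 12 h and from 3.06 and 1.2 TPM to 29.5 and 30.3 TPM at 24 h. The log2 fold changes of SEMA3G were 2.89 ± 0.25 and 2.22 ± 0.25, and those of SEMA3C 2.79 ± 0.24 and 3.37 ± 0.24. Over all genes 1.61% rose and 0.795% fell at 12 h, and 5.55% rose and 2.01% fell at 24 h. Of 18 tested semaphorins and receptors, SEMA3G and SEMA3C rose and 1 fell at each time. That 1 was PLXNA2, a plexin that transmits semaphorin signals, at -1.58 ± 0.35 at 12 h and -1.55 ± 0.35 at 24 h (adjusted p = 0.0039, then 0.0018). Over these 18 genes the median log2 fold change was 0.02 at 12 h and 0.28 at 24 h.

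NANOS3 (gene ID 100405226) was nearly silent in cjESCs, at 0.42 and 0.74 TPM. It was at 6.67 and 4.34 TPM in BLSE and at 43.9 and 34.4 TPM in SOX17 + BLSE at 12 h. At 24 h it was at 7.78 and 8.39 TPM without and at 75.6 and 68.7 TPM with SOX17. The lowest SOX17 + BLSE library was thus above every BLSE library. It rose by 2.64 ± 0.29 at 12 h and by 3.01 ± 0.29 at 24 h (adjusted p = 1.1e-07, then 2.8e-09). Both groups carry a NANOS3-eGFP reporter.

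**Figure D1:**
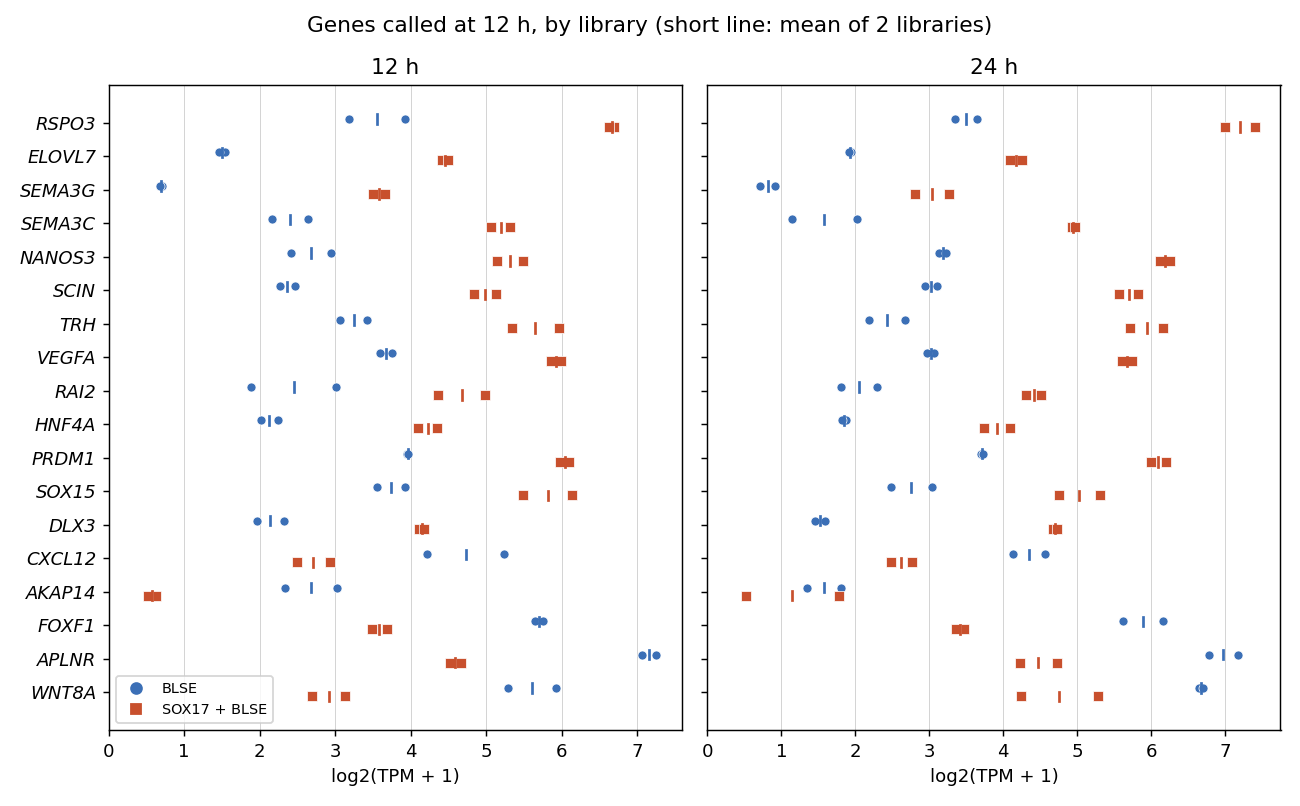
Level of the 18 DEGs of 12 h in each of the 8 libraries, as log2(TPM + 1) on the horizontal axis, at 12 h (left) and 24 h (right). Circles are BLSE and squares SOX17 + BLSE libraries, and short lines are the means of 2 libraries. The 2 groups do not overlap for any of the 18 genes at 12 h, and at 24 h they overlap for AKAP14. The genes were chosen by their difference at 12 h, so their separation there is a description.

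The other secreted signals moved as early. VEGFA, which encodes the main growth factor for blood vessels, was at 11.1 and 12.5 TPM in BLSE and at 57.0 and 62.4 TPM in SOX17 + BLSE at 12 h. It rose by 2.25 ± 0.27 at 12 h and 2.66 ± 0.27 at 24 h (adjusted p = 4.55e-07 and 4.8e-09). TRH, the precursor of thyrotropin-releasing hormone, rose by 2.40 ± 0.35 at 12 h and by 3.51 ± 0.35 at 24 h, where it was at 51.8 and 70.8 TPM against 3.56 and 5.37 TPM. SCIN, an actin-severing protein, rose by 2.62 ± 0.38 and 2.67 ± 0.38, and RAI2 by 2.23 ± 0.31 and 2.36 ± 0.31. For these 4 genes every SOX17 + BLSE library was above every BLSE library of its time. They were chosen as DEGs, so this separation is a description and no further support.

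Most germ cell genes that passed the test were higher with SOX17. Of the 24 tested early PGC genes, 11 rose and 1 fell at 12 h, against 1.61% and 0.795% of all genes, and 12 rose and none fell at 24 h, against 5.55% and 2.01%. The list's median was 0.49 at 12 h and 1.14 at 24 h, beside 0.05 and 0.10 over all genes. After median-ratio scaling the counts were 8 higher and 1 lower at 12 h and 11 higher and 1 lower at 24 h. In a fit of the 8 libraries alone they were 4 higher and 1 lower at 12 h and 9 higher at 24 h. The list includes SOX17 itself and the other transgene-encoded factors. It was chosen with earlier results of these data known, so its counts are a description.

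PRDM1, whose product BLIMP1 represses somatic genes in germ cells, was at 14.5 and 14.6 TPM in BLSE and at 67.4 and 62.1 TPM in SOX17 + BLSE at 12 h. By 24 h it was at 11.9 and 12.2 TPM against 72.8 and 62.7 TPM. It rose by 2.08 ± 0.21 and 2.39 ± 0.21 (adjusted p = 1.3e-08, then 3.2e-10). TFAP2C, an AP-2 transcription factor of germ cells, began from a high level and moved less. It was at 270 and 245 TPM in BLSE and at 464 and 490 TPM in SOX17 + BLSE at 12 h, a log2 fold change of 0.89 ± 0.18 (adjusted p = 0.0019), and rose by 1.26 ± 0.18 (adjusted p = 5.4e-06) at 24 h. SOX15, a SOX gene expressed in human PGCs, was at 10.8 and 14.2 TPM in BLSE and at 44.0 and 69.6 TPM with SOX17 at 12 h, and rose by 2.07 ± 0.26 and 2.28 ± 0.26.

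The surface glycoprotein PDPN, used as a marker of early primate PGCs, was at 403 and 338 TPM in BLSE and at 798 and 902 TPM in SOX17 + BLSE at 12 h. After 24 h it was at 205 and 200 TPM against 694 and 647 TPM. PDPN rose by 1.20 ± 0.13 and 1.72 ± 0.13, and part of the 24 h fold lay in the BLSE libraries, which had gone below the 620 and 444 TPM of cjESCs. DND1, an RNA-binding protein that works with NANOS proteins, rose by 1.15 ± 0.25 and 1.43 ± 0.25. At 12 h that call was lost after median-ratio scaling. ITGB3, an integrin, was the 1 early PGC gene that fell at 12 h, from 99.8 and 110 TPM to 46.7 and 44.6 TPM.

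Pluripotency genes parted. NANOG was at 294 and 252 TPM in BLSE and at 504 and 466 TPM with SOX17 at 12 h, and at 144 and 190 TPM against 382 and 395 TPM at 24 h. It rose by 0.83 ± 0.17 and 1.23 ± 0.17 (adjusted p = 0.0020, then 3.0e-06). POU5F1, the other central factor of the pluripotency network, rose by 0.48 ± 0.10 at 12 h and 0.99 ± 0.10 at 24 h, where it was at 4460 and 5098 TPM against 2284 and 2526 TPM. The 12 h call of POU5F1 was lost after median-ratio scaling. SOX2 went the other way. It was at 191 and 200 TPM in cjESCs, at 32.5 and 36.5 TPM in BLSE at 12 h and at 15.0 and 10.8 TPM in SOX17 + BLSE, and fell by 1.37 on the log2 scale (SE 0.28, adjusted p = 0.0020). By 24 h BLSE had 9.36 and 10.6 TPM of SOX2 and SOX17 + BLSE 5.57 and 7.21 TPM, and the difference of -0.57 ± 0.28 did not pass (adjusted p = 0.19). DNMT3B, a de novo DNA methyltransferase that is low in germ cells, fell by the same 1.28 at both times, from 24.0 and 21.2 TPM to 9.36 and 8.11 TPM at 12 h. Of 19 tested core and primed pluripotency genes, 2 rose and 2 fell at 12 h against 1.61% and 0.795% of all genes, and 4 rose and 1 fell at 24 h against 5.55% and 2.01%. With the 8 libraries alone none passed at 12 h.

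KLF4 and KLF5, Krüppel-like factors of naive pluripotency, rose at both times. KLF4 was at 16.0 and 16.0 TPM in BLSE and at 46.1 and 41.6 TPM with SOX17 at 12 h, and its log2 fold change was 1.40 ± 0.20 at both times. In cjESCs KLF4 was at 62.5 and 65.6 TPM, above all 8 libraries. KLF5 rose by 1.12 ± 0.17 and 1.52 ± 0.17. Of 13 tested naive pluripotency genes 3 rose at 12 h (against 1.61% of all genes) and 5 at 24 h (against 5.55%), and none fell. In the fit of only the 8 libraries 0 and 3 rose, and after median-ratio scaling 3 and 3. The list's median was 0.35 and then 0.83.

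HNF4A and APOA1 rose with SOX17, whereas most of the endoderm list did not pass. HNF4A, a nuclear receptor of liver and gut endoderm, was at 3.03 and 3.75 TPM in BLSE and at 19.3 and 16.2 TPM in SOX17 + BLSE at 12 h. It rose by 2.09 ± 0.34 at 12 h and 2.07 ± 0.34 at 24 h (adjusted p = 1.1e-04, then 4.4e-05). APOA1, the main protein of high-density lipoprotein, rose by 1.79 ± 0.42 and 2.57 ± 0.42 (adjusted p = 0.0068, then 3.7e-05), and at 24 h it was at 142 and 206 TPM against 22.1 and 35.5 TPM. FOXA2, a pioneer factor of definitive endoderm, stayed at 4 TPM or less in all 8 libraries. In the 48 h libraries, a contrast added after the values were seen, FOXA2 was higher with SOX17, at 4.19 ± 0.42. HNF4A, APOA1, HHEX, RIPK4, CLDN6, KIT, SOX17 and PRDM1 were also higher at 48 h, whereas CER1, MIXL1 and SOX7 were lower. At 48 h 10.3% of all genes rose and 6.37% fell. At 12 h 4 of 24 tested endoderm genes rose (HNF4A, APOA1, SOX17 and PRDM1), and at 24 h 5 rose and 1 (SOX7) fell. Over all genes 1.61% rose at 12 h, and 5.55% rose and 2.01% fell at 24 h. In the fit of only the 8 libraries 1 endoderm gene rose at 12 h. The list's median was 0.00 at 12 h and 0.26 at 24 h.

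**Figure D2:**
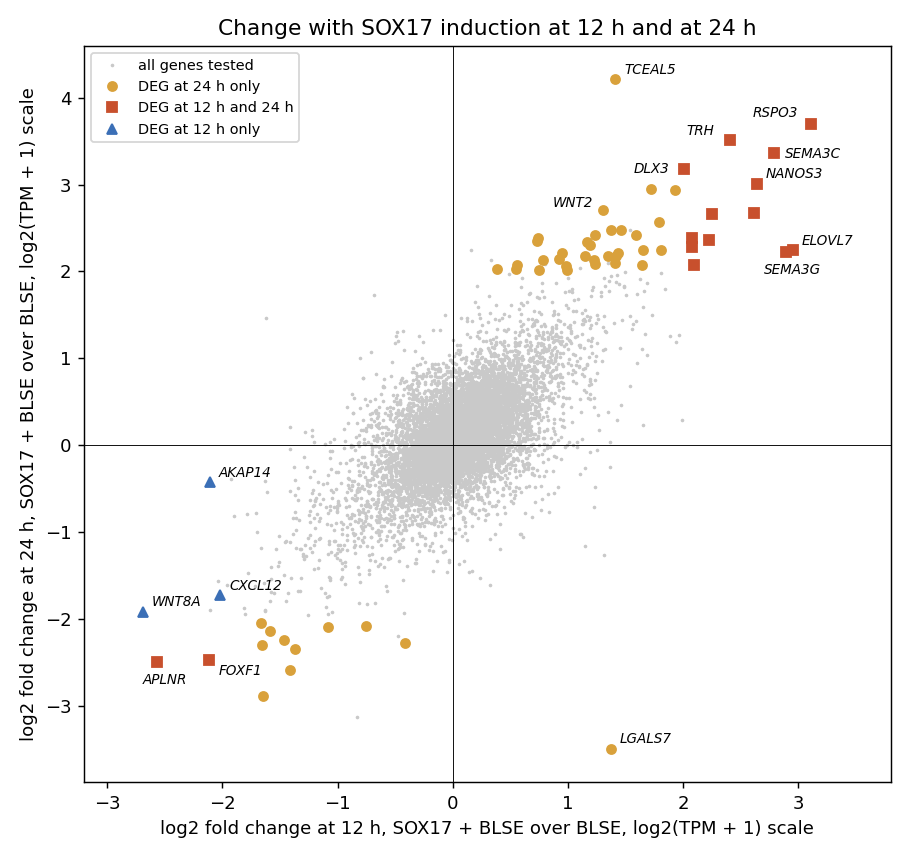
Log2 fold change with SOX17 induction at 12 h (horizontal axis) and at 24 h (vertical axis) for the 11197 genes tested, on the log2(TPM + 1) scale. Squares are DEGs at both times, circles DEGs at 24 h only, triangles DEGs at 12 h only, and small dots all genes. The 13 higher DEGs of 12 h are all squares, and the DEG LGALS7 stands apart with 1.37 at 12 h and -3.50 at 24 h.

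Among the genes that fell were several of mesoderm. FOXF1, a forkhead factor of lateral mesoderm, was at 49.2 and 52.8 TPM in BLSE and at 10.2 and 11.8 TPM in SOX17 + BLSE at 12 h. At 24 h it was at 70.5 and 48.3 TPM against 10.04 and 9.26 TPM. The SOX17 + BLSE values were near the 6.82 and 9.88 TPM of cjESCs, and the BLSE values were above both. FOXF1 had log2 fold changes of -2.12 ± 0.32 and -2.48 ± 0.32 (adjusted p = 2.8e-05, then 6.0e-07). APLNR, the apelin receptor of mesodermal and endothelial cells, went from 133 and 151 TPM to 21.9 and 24.3 TPM at 12 h, at -2.57 ± 0.34, and was at -2.50 ± 0.34 at 24 h. CXCL12, the chemokine that guides migrating PGCs in vertebrates, went from 36.8 and 17.7 TPM to 6.63 and 4.61 TPM at 12 h, at -2.02 ± 0.32, a call lost without BLSE 12 h replicate 1 (-1.51, adjusted p = 0.019).

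Of the 30 tested lateral mesoderm and vascular genes none rose and 4 fell at 12 h (against 1.61% and 0.795% of all genes). At 24 h 2 rose and 8 fell (against 5.55% and 2.01%). The list's median was -0.41 at 12 h and -0.51 at 24 h, and the majority of its members did not pass. The risers at 24 h were PDGFRA and TIE1, both receptor tyrosine kinases, and 2 such calls are no result about the list. PDGFRA was at 65.1 and 59.2 TPM with SOX17 and at 18.3 and 9.66 TPM without it at 24 h. Its log2 fold change was 2.14 ± 0.40 (adjusted p = 2.0e-04), a call lost without BLSE 24 h replicate 2 (1.71, adjusted p = 0.021). HLX, a homeobox gene of visceral mesenchyme, fell at both times, at -1.47 and then -2.25 on the log2 scale. In this bulk RNA, fewer cells of a type and less RNA per cell cannot be told apart.

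A few BMP pathway genes were also lower, while most of the BMP and amnion list described below did not pass. The ligand gene BMP4 was at 283 and 302 TPM in BLSE and at 106 and 92.5 TPM in SOX17 + BLSE at 12 h, although both media contained BMP4 protein. By 24 h it was at 327 and 308 TPM against 106 and 88.0 TPM. The SOX17 + BLSE libraries had less BMP4 RNA than the cjESCs (119 and 205 TPM), and the BLSE libraries had more. BMP4 had log2 fold changes of -1.55 ± 0.19 and -1.71 ± 0.19 (adjusted p = 5.8e-07, then 3.4e-08). ID3, a direct target of BMP signalling, went from 790 and 794 TPM to 393 and 359 TPM at 12 h and differed by -1.11 ± 0.17 at 24 h. Its relative ID1 did not pass, at 0.27 ± 0.18 at 12 h and 0.53 ± 0.18 at 24 h (adjusted p = 0.55, then 0.045). BMPER, a secreted BMP-binding protein, fell too, with log2 fold changes of -1.65 at 12 h and -2.31 at 24 h.

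Of 31 tested BMP targets and amnion-associated genes, 1 rose and 3 fell at 12 h (against 1.61% and 0.795% of all genes) and again 1 rose and 3 fell at 24 h (against 5.55% and 2.01%). The share that rose at 24 h was thus below that of all genes. The list's median log2 fold change was 0.02 at 12 h and 0.19 at 24 h, beside 0.05 and 0.10 over all genes. The riser at both times was DLX3, a homeobox gene of ectoderm and trophoblast. DLX3 was at 3.98 and 2.89 TPM in BLSE and at 16.3 and 17.1 TPM with SOX17 at 12 h, and at 1.74 and 2.01 TPM against 24.5 and 25.5 TPM at 24 h. It rose by 2.01 ± 0.40 and 3.18 ± 0.40 (adjusted p = 0.0014, then 4.8e-07). The 12 h call was lost without either SOX17 + BLSE 12 h library or without BLSE 12 h replicate 2, with an adjusted p of up to 0.043. DLX4, its neighbour in RefSeq's gene order with no protein-coding gene between, rose at 24 h by 2.18 ± 0.36 (adjusted p = 4.35e-05) after 1.15 ± 0.36 (adjusted p = 0.064) at 12 h. This was the 1 pair of adjacent genes among the 60 DEGs that the table placed. GATA3, an amnion and trophoblast factor, was at -0.57 ± 0.28 and -0.17 ± 0.28 and passed at neither time.

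In the WNT pathway single ligands moved in both directions. WNT8A, a ligand of the primitive streak, was at 59.5 and 38.0 TPM in BLSE and at 7.77 and 5.45 TPM in SOX17 + BLSE at 12 h. At 24 h both groups were higher, at 99.8 and 103 TPM against 38.0 and 17.8 TPM. WNT8A had log2 fold changes of -2.69 ± 0.41 and -1.92 ± 0.41 (adjusted p = 2.8e-05, then 9.4e-04). WNT2 rose from under 1 TPM in BLSE to 2.73 and 2.74 TPM at 12 h and to 6.52 and 7.1 TPM at 24 h, by 1.31 ± 0.24 and 2.7 ± 0.24. LEF1, a WNT-responsive transcription factor, fell by 1.62 at 24 h on the log2 scale, from 18.6 and 16.9 TPM to 3.75 and 6.82 TPM.

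Of 24 tested WNT ligands and receptors, 2 rose and 1 fell at 12 h (against 1.61% and 0.795% of all genes), and 3 rose and 1 fell at 24 h (against 5.55% and 2.01%). Their median was 0.03 at 12 h and 0.24 at 24 h. Of 30 tested inhibitors, feedback genes and targets of WNT, 1 (PRDM1) rose at 12 h, and 3 rose and 1 fell at 24 h. Their medians of -0.05 and 0.10 lay near those of all genes (0.05 and 0.10). No gene of the 20 tested in the NODAL axis and primitive streak list changed at 12 h, although its median was -0.63. At 24 h 2 of them (TDGF1 and GDF3) rose against 5.55% of all genes and none fell, with a median of -0.28. NODAL itself was at 231 and 193 TPM in BLSE and at 100 and 84.8 TPM in SOX17 + BLSE at 12 h (-1.19 ± 0.40, adjusted p = 0.094), where the groups did not overlap and the test was not passed. Over both times together 2 genes of this list rose and 1 fell, against 7.8% and 3.46% of all genes. The gene that fell was MIXL1, at -1.87 ± 0.48 (adjusted p = 0.0042).

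The HOX genes that passed were lower with SOX17. Of 26 tested, 1 fell at 12 h and 5 fell at 24 h, against 0.795% and 2.01% of all genes. None rose at either time. The list's median was -0.18 at 12 h and -0.55 at 24 h. HOXB6 did not pass at 12 h, at -0.68 ± 0.29, and was at -1.82 ± 0.29 (adjusted p = 2.4e-05) at 24 h, with 40.9 and 48.7 TPM against 11.6 and 12.3 TPM. CRABP2, a carrier of retinoic acid, fell by 1.64 at 24 h on the log2 scale.

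Genes of cell shape and adhesion changed in small numbers. SNAI2, a repressor of epithelial genes, went from 45.0 and 45.9 TPM to 20.3 and 11.01 TPM at 12 h and differed by -1.54 ± 0.31 and -1.20 ± 0.31 at the 2 times. CDH2, which encodes N-cadherin, went from 4.34 and 3.91 TPM to 13.4 and 14.3 TPM at 12 h and rose by 1.53 ± 0.19 and 1.49 ± 0.19. OCLN, a tight junction protein, rose by 1.01 ± 0.21 and 1.21 ± 0.21, and VIM, the mesenchymal filament protein, fell by 0.84 at 24 h. Of 19 tested genes of epithelial-mesenchymal transition and adhesion, 2 rose and 1 fell at 12 h against 1.61% and 0.795% of all genes, and 4 rose and 3 fell at 24 h against 5.55% and 2.01%. With the 8 libraries alone none passed at 12 h.

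**Figure D3:**
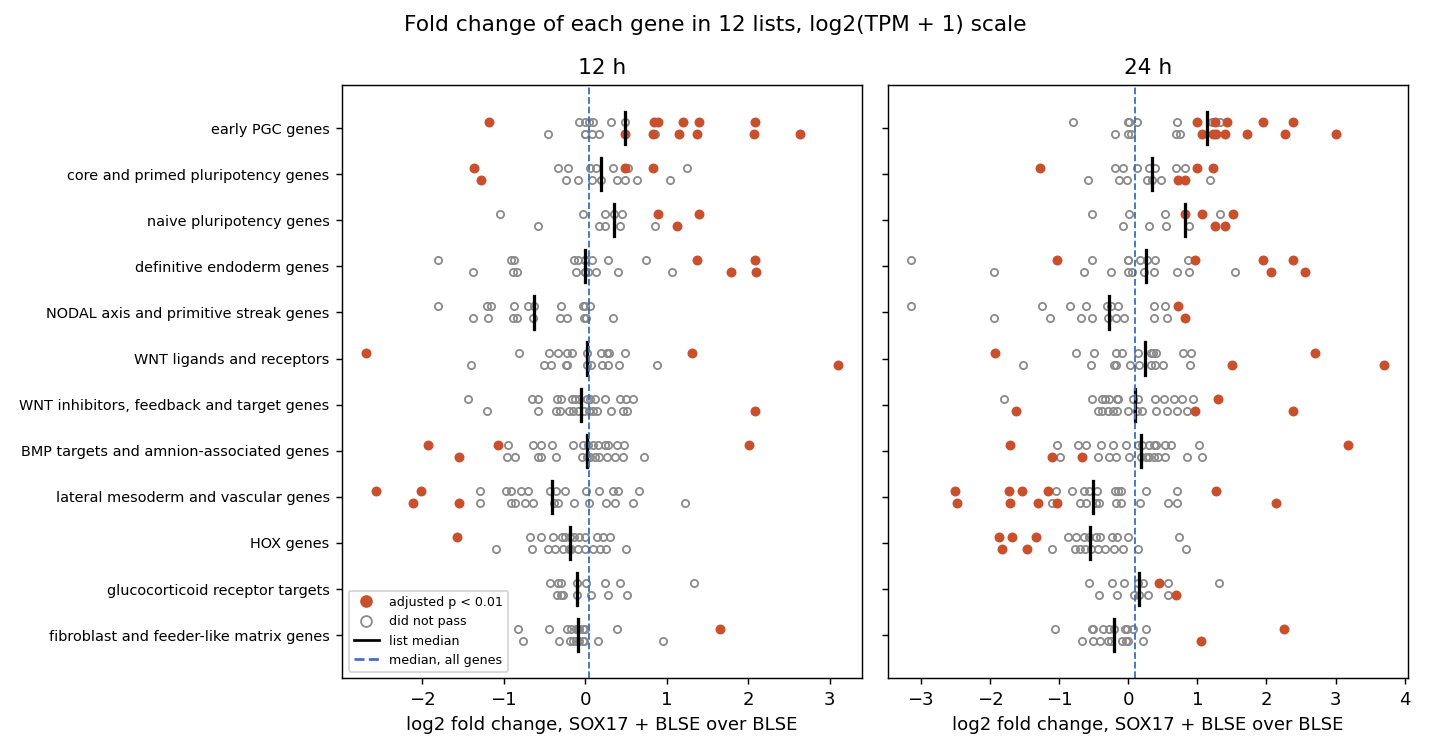
Log2 fold change with SOX17 induction for each tested gene of 12 lists, at 12 h (left) and 24 h (right), on the log2(TPM + 1) scale. Filled points passed an adjusted p below 0.01, open points did not, short black lines are list medians, and the dashed line is the median of all genes. Early PGC genes lie mostly to the right, with medians of 0.49 and 1.14, and lateral mesoderm and vascular genes to the left, with medians of -0.41 and -0.51.

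The 24 h libraries added DEGs to those of 12 h without reversing them. All 13 higher DEGs of 12 h were again DEGs at 24 h, which is 28.9% of the 45 higher DEGs of 24 h. Of the 5 lower DEGs of 12 h, 2 (APLNR and FOXF1) were DEGs at 24 h, WNT8A and CXCL12 were changed, and AKAP14 overlapped between groups. Of the 180 genes higher at 12 h, 149 (82.8%) were changed in that direction at 24 h, against 5.55% of all genes. Of the 89 lower genes, 63 (70.8%) were, against 2.01%. No gene was changed in opposite directions, and 70.2% of all genes had the same sign at both times. The libraries of the 2 times are separate, so these shares do not rest on common controls. Both times do share the clone, the drug and each gene's estimate of spread.

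The largest fold at 24 h was that of TCEAL5, a transcription elongation factor-like gene. It was at 4.93 and 3.76 TPM in BLSE and at 11.7 and 14.7 TPM in SOX17 + BLSE at 12 h, where it did not pass (1.41 ± 0.39, adjusted p = 0.027). At 24 h it was at 0 and 1.6 TPM against 25.4 and 32.8 TPM, and rose by 4.21 ± 0.39 (adjusted p = 9.8e-10). PIM2, a survival kinase and STAT3 target, rose by 1.93 ± 0.21 at 12 h and 2.94 ± 0.21 at 24 h. It was at 62.6 and 45.2 TPM in cjESCs, at 9.82 and 8.71 TPM in BLSE at 24 h and at 74.1 and 81.3 TPM in SOX17 + BLSE, so the BLSE libraries lay below the stem cells and the SOX17 + BLSE libraries above. LONRF3 rose by 1.72 ± 0.27 and 2.94 ± 0.27, and MAT1A, which makes S-adenosylmethionine in liver, by 1.59 ± 0.27 and 2.42 ± 0.27. Of the 45 higher DEGs at 24 h, 26 were changed in the same direction at 12 h, against 1.61% of all genes. All 45 had a positive sign at 12 h.

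Of the 13 lower DEGs at 24 h, 6 fell at 12 h, against 0.795% of all genes, and 12 had a negative sign there. The exception was LGALS7, a galectin of stratified epithelium, which was listed at 0 in both SOX17 + BLSE libraries of 24 h and at 11.6 and 9.14 TPM in BLSE. At 12 h it was listed at 0 in 1 BLSE library and at 10.5 TPM in the other, beside 8.7 and 6.9 TPM with SOX17, and its 24 h call was lost without any 1 of the 4 libraries of that time, with an adjusted p of up to 0.033. CRCT1, an epidermal gene, went from 10 and 14.9 TPM to 1.16 and 0.48 TPM at 24 h (-2.89 ± 0.59), and SYNDIG1L from 12.3 and 15.6 TPM to 1.62 and 1.31 TPM (-2.59 ± 0.38). The CRCT1 call was lost without SOX17 + BLSE 24 h replicate 2 or BLSE 24 h replicate 2, with an adjusted p of up to 0.021.

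No gene passed the test of a difference between the 24 h and the 12 h effect at an adjusted p below 0.01 in limma, and 634 of 11197 had an unadjusted p below 0.05. SOX2, for which the 12 h fold passed and the 24 h fold did not, differed between the times by 0.79 ± 0.40 (adjusted p = 0.89) and AKAP14 by 1.68 ± 0.67 (adjusted p = 0.75). Averaged over both times, 24 genes (0.214%) were DEGs, 19 higher and 5 lower, and 1260 (11.3%) were changed, 873 higher (7.8%) and 387 lower (3.46%). After median-ratio scaling the latter split into 640 higher and 674 lower, and after quantile normalization into 673 and 554.

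The libraries of 48 h gave a later look at the same genes (this contrast was added after the values were seen). At 48 h, 226 genes (2.02%) were DEGs and 1866 (16.7%) changed, of which 1153 (10.3%) were higher and 713 (6.37%) lower. All 13 higher DEGs of 12 h and 3 of the 5 lower ones were changed in the same direction at 48 h, WNT8A and AKAP14 being the exceptions. Of the 24 h DEGs, 41 of 45 higher and 11 of 13 lower were changed in the same direction. NANOS3 was at 4.45 ± 0.29 at 48 h on the log2 scale and RSPO3 at 3.78 ± 0.37, whereas ELOVL7 was at 1.86 and SEMA3G at 1.91. WNT8A was at -0.24 and did not pass.

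**Figure D4:**
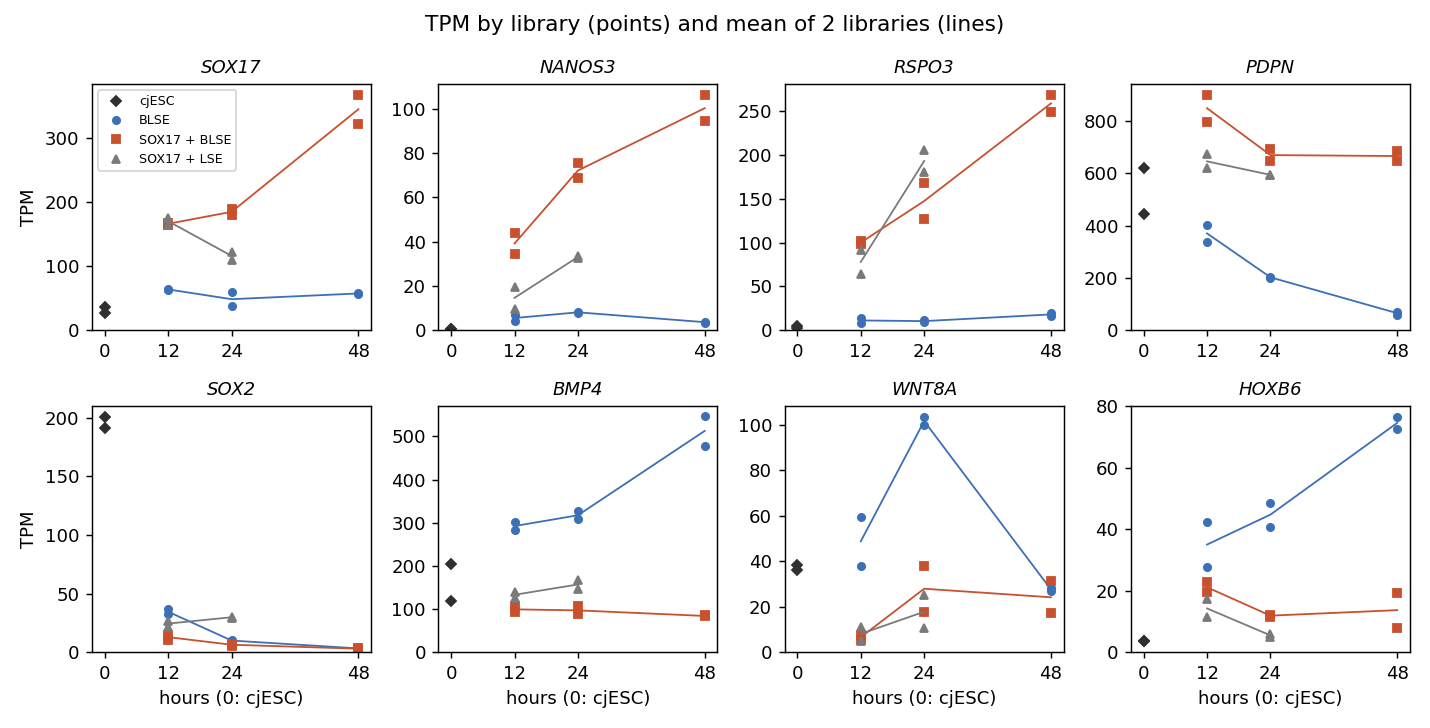
TPM of 8 genes (vertical axes, starting at 0) against hours (horizontal axes, with cjESCs at 0). Points are libraries and lines join the means of 2 libraries: diamonds are cjESCs, circles BLSE, squares SOX17 + BLSE and triangles SOX17 + LSE. NANOS3 and RSPO3 rise with SOX17 and stay low in BLSE, while BMP4 and HOXB6 stay low with SOX17 and are higher in BLSE.

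The series also held SOX17-induced cells without BMP4 (SOX17 + LSE), whose values are set beside those above without a test. NANOS3 had 9.56 and 19.7 TPM in SOX17 + LSE at 12 h and 32.6 and 33.7 TPM at 24 h, below SOX17 + BLSE and above BLSE at both times. DLX3 had 1.54 and 2.23 TPM at 12 h and 4.03 and 4.02 TPM at 24 h, near BLSE rather than SOX17 + BLSE. RSPO3 (64.7 and 91.3 TPM at 12 h), ELOVL7 (26.95 and 32.9 TPM) and SEMA3C (33.8 and 40.1 TPM) reached levels of the same order as with BMP4. ID3 had 85.0 and 90.6 TPM at 12 h, below both groups given BMP4.

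Dexamethasone can act through the cells' own glucocorticoid receptor, so a list of its known targets was read beside the result. NR3C1, the receptor gene, was too low to be tested. None of 15 tested glucocorticoid targets changed at 12 h, with a median of -0.10. At 24 h RGS2 and TSC22D1 rose and none fell (against 5.55% and 2.01% of all genes). After median-ratio scaling none rose and 1 (FKBP5) fell, and after quantile normalization 1 (RGS2) rose and FKBP5 fell. Unscaled, the summed level of the list was 1223 to 1299 TPM with and 1001 to 1081 TPM without the drug. RGS2, a regulator of G protein signalling, was at 444 and 432 TPM against 262 and 278 TPM (0.70 ± 0.15, adjusted p = 8.5e-04). TAT, tyrosine aminotransferase, was at 2.42 and 5.19 TPM against 0.85 and 0.8 TPM at 12 h and passed over both times together (1.32 ± 0.27, adjusted p = 3.6e-04), whereas FKBP5, a widely used receptor target, was lower over both times (-0.45 ± 0.12, adjusted p = 0.0076). In the 48 h contrast, added after the values were seen, TAT was at 32.4 and 37.0 TPM with and at 0.18 and 0.65 TPM without the drug (4.67 ± 0.38). CEBPD, GLUL, KLF9, NFKBIA and RGS2 rose at 48 h too, and FKBP5 fell (-0.76 ± 0.17). The part of the drug in any result was not tested.

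Other cell types and cell state were checked in the same way. Of 21 tested fibroblast and feeder-like matrix genes, LUM rose at 12 h and LUM and THY1 at 24 h, beside 1.61% and 5.55% of all genes, and 1 or 2 calls in a list of this length are no result about it. LUM, a matrix proteoglycan, was at 5.64 and 6.77 TPM against 18.4 and 25.4 TPM at 12 h. The summed level of the list was 3851 to 4319 TPM in BLSE and 3559 to 3938 TPM with SOX17 at 12 h, and 3603 to 3617 TPM and 3263 to 3464 TPM at 24 h. The list as a whole was thus not higher with SOX17, and its medians were -0.09 and -0.21. Of 15 tested stress and apoptosis genes none changed at 12 h, and FOS and SESN2 rose at 24 h (against 5.55% of all genes). FOS, an immediate early gene, was at 54.3 and 63.6 TPM against 11.3 and 17.2 TPM (2.0 ± 0.44, adjusted p = 0.0013).

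Growth factor and other lists were mixed. Their counts are to be read beside the shares of all genes, 1.61% higher and 0.795% lower at 12 h and 5.55% higher and 2.01% lower at 24 h, and single calls in lists of this length are no result about the list. Of 15 LIF and STAT3 response genes, PIM2 and KLF4 rose at both times. Of 23 FGF, EGF and ERK feedback genes, 1 fell at 12 h, and 5 rose and 1 fell at 24 h. That 1 was EGFR, the receptor of the EGF in the medium, which went from 39.4 and 26.5 TPM to 12.7 and 11.3 TPM (-1.36 ± 0.29, adjusted p = 9.4e-04). Of 19 fatty acid elongases and desaturases 1 (ELOVL7) rose at 12 h and 5 at 24 h, among them FADS2 and SCD. Of 16 retinoic acid genes 1 fell at 12 h and 3 fell at 24 h, and none rose at either time. Of 14 neural genes 2 (SOX2 and NES) fell at 12 h, and PAX7 rose and NES fell at 24 h. Of 13 SOX genes 2 rose and 1 fell at 12 h, and 3 rose and 2 fell at 24 h. Of 17 motile cilia genes AKAP14 fell at 12 h and CCDC40 rose at 24 h.

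Several more calls of named genes were lost when 1 library was left out, with folds that kept their sign. At 12 h the calls of SOX17, TFAP2C, DND1, UTF1, DNMT3B, PLXNA2, APOA1, AKAP14, BMPER and HLX were lost without any 1 of the 4 libraries of that time. The fold of SOX17 then lay between 1.35 and 1.39 with an adjusted p of up to 0.036, and the adjusted p of HLX reached 0.17. NANOG and OCLN lost the 12 h call without any library but BLSE replicate 1, with folds down to 0.72 and 0.77. POU5F1, SOX2, SNAI2 and LUM lost it without any library but SOX17 + BLSE replicate 1, at an adjusted p of up to 0.11 (SNAI2). WNT2 and ITGB3 lost it without replicate 2 of either group, at up to 0.023.

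At 24 h SOX7 lost its call without any 1 of the 4 libraries, with an adjusted p of up to 0.068. WNT8A lost it without replicate 2 of either group, at -1.89 and -1.39. PLXNA2 was at -0.86 or -1.01 without SOX17 + BLSE replicate 2 or BLSE replicate 1, and EGFR lost its call without the same libraries (up to 0.035). DNMT3B lost it without SOX17 + BLSE replicate 2 (-1.14), LEF1 without SOX17 + BLSE replicate 1 (-1.26) and RGS2 without replicate 1 of either group (0.65 and 0.68). SNAI2 and FOS lost it without any library but BLSE replicate 2, VIM without any but SOX17 + BLSE replicate 2, and CRABP2 without any but BLSE replicate 1, at adjusted p of up to 0.13 (SNAI2). Over both times FKBP5 lost its call without any of 6 libraries (up to 0.091) and MIXL1 without any of 4 (up to 0.036).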

How the data were processed

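Poly(A) RNA of 54 marmoset libraries in 27 groups of 2 was measured by directional RNA-seq. The authors aligned reads with STAR to a marmoset genome and deposited TPM estimated with RSEM for genes shared with human. Their own test ran on counts, which were not used here, so depth and counting error are unknown.

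TPM were tested as log2(TPM + 1) for the 11197 of 14812 genes that reached 1.5 on that scale in any library, with limma 3.58.1 in R 4.3.3 (group means of all 54 libraries, 27 residual degrees of freedom, intensity trend, Benjamini-Hochberg over all genes tested). The spread was thus shared with libraries outside the comparison. The contrasts were 12 h, 24 h, their mean and their difference. On simulated data with large changes in well-expressed genes the script was tested and recovered all changed genes. Smaller changes and differences between the times were not simulated. The duplicates compared were separate biological samples of 1 line. The p-values rest on the spread between duplicates pooled over all 27 groups, not on that of the 8 libraries alone. Named genes were every 12 h DEG, the largest DEGs of 24 h and of both times, and members of 23 gene lists. Members and lists were chosen with earlier results of these data known, so the counts of the lists are descriptions. Antisense or overlapping genes and near-identical copies were not separated. No coordinates are given, because the gene table is of another assembly than the data. No promoter sequences were at hand, so a planned search for promoter motifs was not run. Some genes are not reported here.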

Additional observations from a re-analysis of the deposited data

How the results depend on the processing

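The fits were repeated with a pseudocount of 0.1, with no filter, on only the 8 libraries, with a replicate block, after each of the 2 scalings, without the intensity trend, and without each library in turn. With the 8 libraries alone, which leaves 4 residual degrees of freedom, the DEGs were 9 at 12 h and 37 at 24 h, and the changed genes 27 at 12 h, 187 at 24 h and 435 over both times. Of the 18 DEGs of 12 h, 9 then stayed changed (not AKAP14, CXCL12, DLX3, HNF4A, RAI2, SEMA3C, SOX15, TRH and WNT8A), and 36 of the 58 of 24 h. A pseudocount of 0.1 gave 53 DEGs over both times in place of 24. Leaving out 1 library gave 14 to 21 DEGs and 86 to 278 changed genes at 12 h, 46 to 71 and 402 to 855 at 24 h, and 22 to 31 and 867 to 1142 over both times. For the difference between times it gave 0 to 1 changed genes and 0 to 1 DEGs, the 1 being TCEAL5 without BLSE 24 h replicate 2. Among the values given for named genes, signs turned for differences that had not passed: LGALS7 at 12 h was -0.39 without BLSE 12 h replicate 2 (range of these fits -0.39 to 3.13) and AKAP14 at 24 h 0.20 without SOX17 + BLSE 24 h replicate 2 (-1.06 to 0.20). Libraries of 1 replicate number deviated together weakly (r = 0.21 at 12 h and 0.27 at 24 h, across genes). With 2 numbers they share only a number, and the replicate block gave 18 DEGs and 276 changed genes at 12 h and 57 and 899 at 24 h. The other counts over all genes stayed within 1.5 times. Counts of the gene lists moved more. With the 8 libraries alone, lateral mesoderm and vascular genes had 3 lower at 12 h and 4 at 24 h, HOX genes 3 lower at 24 h, elongases and desaturases 1 higher at 24 h and SOX genes 0 at 12 h. A pseudocount of 0.1 left 2 HOX genes and 5 lateral mesoderm and vascular genes lower at 24 h.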

Other observations

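Genes of sterol synthesis and uptake stood higher with SOX17. This list was put together after INSIG1 and others of its members had been seen among the genes that moved, so its counts are a description. Of 23 tested members 7 rose at 12 h, 17 at 24 h and 18 over both times, beside 1.61%, 5.55% and 7.8% of all genes, and none fell. With the 8 libraries alone 1, 7 and 9 rose. The list's median log2 fold change was 0.60 at 12 h and 0.93 at 24 h, beside 0.05 and 0.10 for all genes, and after median-ratio scaling 14 rose at 24 h. INSIG1, which holds back the sterol-sensing machinery when sterols are plentiful, was at 13.4 and 12.5 TPM in BLSE and at 42.6 and 42.0 TPM with SOX17 at 12 h, and rose by 1.64 ± 0.25 and 2.07 ± 0.25. The SOX17 + LSE libraries, which also received dexamethasone, had 32.7 and 29.7 TPM of INSIG1 at 12 h.

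The genes nearest to a difference between the times were DSG3, TCEAL5 and TSPAN15, named here after their values were seen. DSG3, a desmosomal cadherin, was at 5.34 and 3.69 TPM in BLSE and 3.1 and 1.81 TPM with SOX17 at 12 h, and at 2.78 and 1.46 TPM against 11.2 and 7.4 TPM at 24 h. Its effect differed between the times by 2.41 ± 0.45 on the log2 scale (adjusted p = 0.049 in limma). TCEAL5 differed by 2.80 ± 0.55 and TSPAN15, a tetraspanin, by 1.48 ± 0.30 (adjusted p = 0.067 for each).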
